A study of Blattella germanica with 8 samples.

Results

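The conglobate gland of the male German cockroach, Blattella germanica, is an accessory sex gland made of coiled tubules that open into the ejaculatory duct. Each tubule is a single layer of secretory cells around a lumen lined with cuticle, and the secretion contributes to the spermatophore, the packet in which sperm is passed to the female. In secretory glands of this kind a few transcripts, usually those of exported proteins, take up a large part of all mRNA, while the transcripts that run protein synthesis and energy supply make up much of the rest of the abundant fraction. The transcripts described here are abundant ones of this gland outside a few rows named below. They were chosen by their dsMock levels, as the rows of the gene count table with a mean of at least 1000 CPM (counts of a transcript scaled to a common library total) over the 4 dsMock libraries. Of 30784 rows, 69 reached this level. The list leaves out 14 of them, among them the row of BgILP8 (an insulin-like peptide) and the row with the most counts of all. The rest are a pair of lipocalin allergen rows and 10 neighbouring serine carboxypeptidase rows. All were matched to these names by level, BgILP8 also by its fold change, and not by a table of identifiers. Whether any transcript kept in the list belongs to a family that the study names is not known. This left 55 transcripts, and since their dsMock levels chose them, these levels are a description.

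Conglobate glands of 7-day-old adult males were compared between 4 dsILP8 libraries, from males injected with dsRNA against BgILP8, and 4 dsMock libraries, from males injected with a non-homologous dsRNA of a baculovirus polyhedrin. Both groups received 2 µg of dsRNA in the abdomen on day 7 of instar 6, the last nymphal instar, and the animals came from laboratory colonies reared on dog food. The study names 4 replicates per treatment, but the number of glands pooled per library could not be read from the labels or methods. Every p-value of the group comparison is therefore set against the spread between these libraries, which may be partly technical. The question of the comparison was which transcripts of the gland differ when BgILP8 mRNA is depleted.

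The dsILP8 libraries held 9060546 to 10934576 counts and the dsMock libraries 9328920 to 11461055, so 1000 CPM stood for 9061 to 11461 counts, with a counting error of 0.934% to 1.05%. This covers counting error only, because reads copied by PCR are not independent molecules. The row BGER021014-RA, which was matched to BgILP8 through the mean count and fold change in the study's list of changed genes, held 92.0 ± 25.1 CPM in dsILP8 libraries and 2152 ± 483 CPM in dsMock libraries (SD, n = 4 each). All 4 dsILP8 libraries lay below all dsMock libraries in this row. Because the match used this contrast, it is no independent check of the labels or of the depletion. The study measured the depletion separately by qPCR, relative to an actin gene. At adult day 7 it reported a smaller fall than these counts show. Counts remained in every dsILP8 library, at 57.3 to 113 CPM. The dsILP8 replicate 1 library stood apart: its log2 correlations with the other 7 libraries, across genes, were 0.933 to 0.946, against 0.969 to 0.981 among the others.

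The files hold identifiers without gene names, and 0 of the 55 identifiers are in the reference gene table used here. The transcripts are therefore described by their identifiers, without a role, and no markers of other tissues could be followed. CPM is not scaled for transcript length, so an order of transcripts by CPM is an order of read counts and not of molecules. In whole glands, fewer cells of a type and less RNA per cell cannot be told apart.

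Together the 55 transcripts held 24.98% ± 2.03 of all counts in dsILP8 libraries and 25.2% ± 3.04 in dsMock libraries (SD, n = 4 each). The difference of -0.199 percentage points was smaller than the spread between libraries of either group. By library the share was 23.7%, 24.1%, 24.1% and 28.0% in dsILP8 replicates 1 to 4, and 29.2%, 21.8%, 24.7% and 24.9% in dsMock replicates 1 to 4. The lowest and the highest share were both in dsMock libraries, and the groups overlapped. The 14 rows left out held 39.7% ± 4.07 in dsILP8 and 43.1% ± 2.81 in dsMock libraries (SD, n = 4 each), so the 69 rows together carried the larger part of the counts of every library. Without these 14 rows in the denominator the share of the 55 transcripts was 41.5% in dsILP8 and 44.1% in dsMock libraries.

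**Figure D1:**
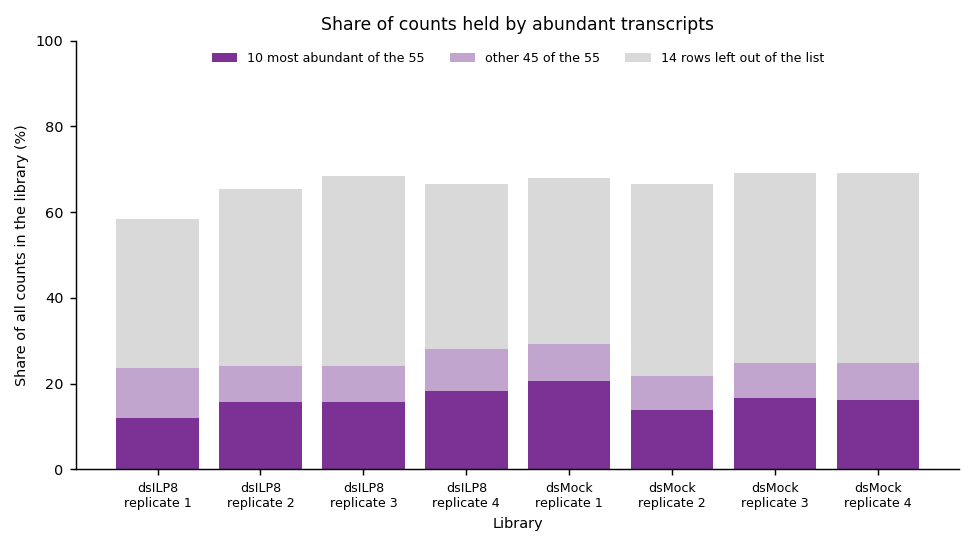
Share of all counts (y axis, %) in each of the 8 libraries (x axis, dsILP8 left, dsMock right), split into the 10 most abundant of the 55 transcripts, the other 45, and the 14 rows left out of the list. The 55 transcripts took 21.8% to 29.2% of the counts in every library, with dsILP8 replicate 4 (28.0%) and dsMock replicate 1 (29.2%) highest.

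The 10 most abundant transcripts accounted for 61.9% of the counts of the list in dsILP8 and 67.1% in dsMock libraries. They held 15.5% ± 2.56 of all counts in dsILP8 and 16.9% ± 2.86 in dsMock libraries (SD, n = 4 each). The other 45 held 9.53% ± 1.54 and 8.27% ± 0.317 (dsILP8 and dsMock, SD, n = 4 each). Of this part dsILP8 replicate 1 held 11.6% and the other 3 dsILP8 libraries 8.38% to 9.68%. By mean dsMock level 5 transcripts lay above 10000 CPM, 15 between 2000 and 10000 CPM and 35 between 1000 and 2000 CPM. The median of the list was 1765 CPM.

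**Figure D2:**
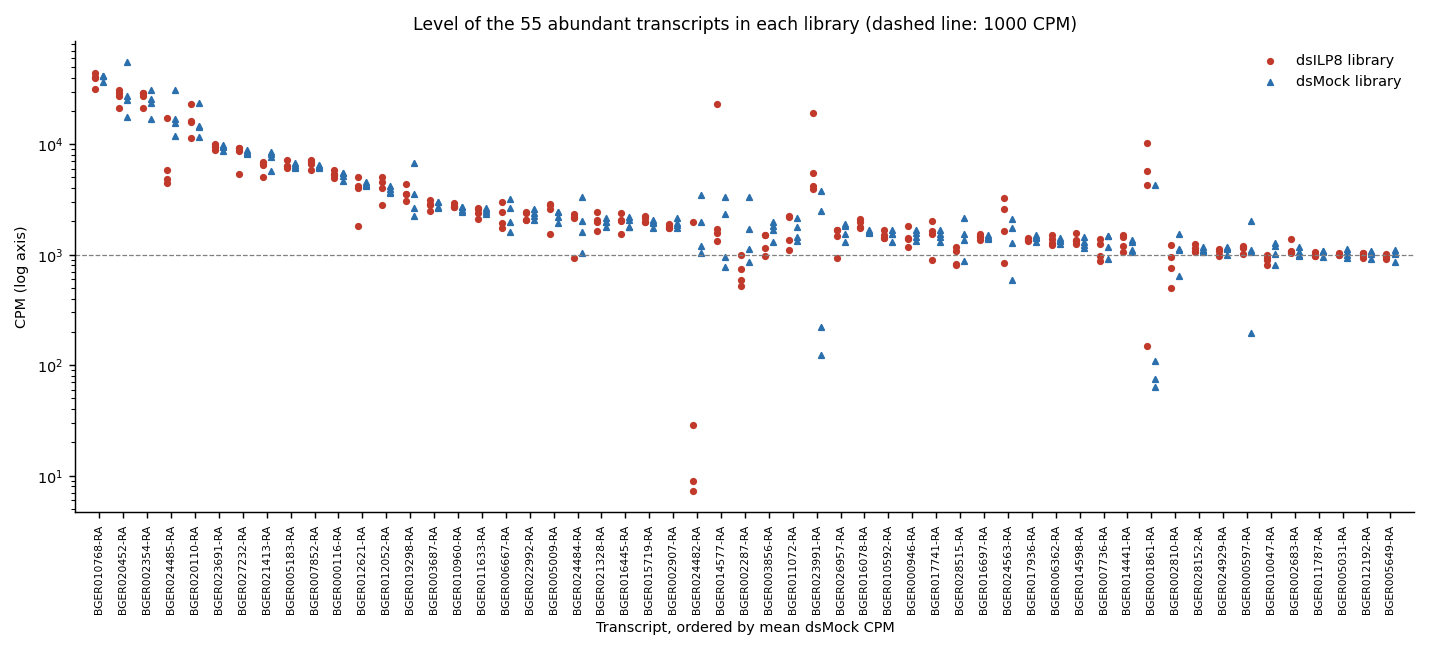
CPM (y axis, log scale) of each of the 55 transcripts (x axis, ordered by mean dsMock CPM) in the 4 dsILP8 libraries (circles) and the 4 dsMock libraries (triangles). In 26 of the 55 transcripts the 8 points span less than 1.5 times, whereas BGER024482-RA, BGER001861-RA and BGER023991-RA ranged over more than 100-fold between libraries.

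BGER010768-RA had the most counts of the list and ranked 3 in the whole table. It held 31433, 39825, 40282 and 44188 CPM in dsILP8 replicates 1 to 4, and 36680, 41136, 41817 and 41865 CPM in dsMock replicates 1 to 4. The dsILP8 libraries spanned the whole dsMock range, and the lowest value of the 8 was that of dsILP8 replicate 1.

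BGER020452-RA, rank 5, held 21097, 27142, 28853 and 31083 CPM in dsILP8 replicates 1 to 4. In dsMock replicates 1 to 4 it held 55300, 17749, 25153 and 27366 CPM. One library, dsMock replicate 1, was far above the other 7, and these overlapped between the groups. BGER020110-RA, rank 10, had 11453, 16279, 15756 and 23100 CPM in dsILP8 replicates 1 to 4 and 23828, 11654, 14411 and 14743 CPM in dsMock replicates 1 to 4. Its highest dsMock library was again replicate 1, which dsILP8 replicate 4 nearly reached. BGER019298-RA followed the same library too, with 3080 to 4331 CPM in dsILP8 libraries and 6743, 2232, 2649 and 3528 CPM in dsMock replicates 1 to 4.

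BGER002354-RA, rank 8, held 21203, 29130, 28964 and 27571 CPM in dsILP8 replicates 1 to 4, and 23731, 16873, 30966 and 25443 CPM in dsMock replicates 1 to 4. Here the lowest library was dsMock replicate 2 and the groups overlapped. BGER021413-RA, rank 17, reached 5076, 6781, 6915 and 6534 CPM in dsILP8 replicates 1 to 4 and 5754, 7661, 8460 and 8080 CPM in dsMock replicates 1 to 4. Of its dsMock libraries 3 lay above all dsILP8 libraries, but dsMock replicate 1 lay below 3 of them.

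BGER027232-RA, rank 15, held 5410, 8760, 9292 and 9174 CPM in dsILP8 replicates 1 to 4, and 8373, 8084, 8933 and 8451 CPM in dsMock replicates 1 to 4. All libraries but dsILP8 replicate 1 lay close together. The remaining 3 of the 10 most abundant transcripts, BGER023691-RA, BGER005183-RA and BGER007852-RA, were among the steadiest of the list. BGER023691-RA, rank 14, was at 8816, 9660, 9365 and 9988 CPM in dsILP8 replicates 1 to 4, and at 9620, 9865, 8755 and 9434 CPM in dsMock replicates 1 to 4. BGER005183-RA, rank 20, was at 6109, 6377, 6362 and 7144 CPM in dsILP8 replicates 1 to 4, and at 6532, 6814, 6034 and 6262 CPM in dsMock replicates 1 to 4. BGER007852-RA, rank 22, was at 5905, 6931, 6598 and 7261 CPM in dsILP8 replicates 1 to 4, and at 6317, 6444, 6183 and 6088 CPM in dsMock replicates 1 to 4. In all 3 the groups overlapped, and the highest library was dsILP8 replicate 4.

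The transcripts ranged from steady ones to a few whose libraries lay far apart. The coefficient of variation (CV, the SD as a percentage of the mean of 4 libraries) had a median over the 55 transcripts of 14.3% in dsILP8 and 10.3% in dsMock libraries. Without dsILP8 replicate 1 the dsILP8 median was 8.25%. Over all 14444 genes tested the medians were 28.4% in dsILP8 and 26.9% in dsMock libraries, and over the 653 genes with a mean of 100 to 1000 dsMock CPM they were 12.7% and 8.49%. A CV under 10% in both groups, a limit chosen after the values were seen, was found in 19 of the 55 transcripts (34.5%). The shares were 26.3% of those 653 genes and 4.76% of all genes tested. The highest and the lowest of the 8 libraries differed by less than 1.5 times in 26 transcripts (47.3%, against 62.9% of the 653 genes and 18.4% of all genes tested). They differed by 10 times or more in 5 transcripts (9.09%, against 0.766% of the 653 genes and 24.8% of all genes tested). Genes without counts in some library were included in that last share.

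**Figure D3:**
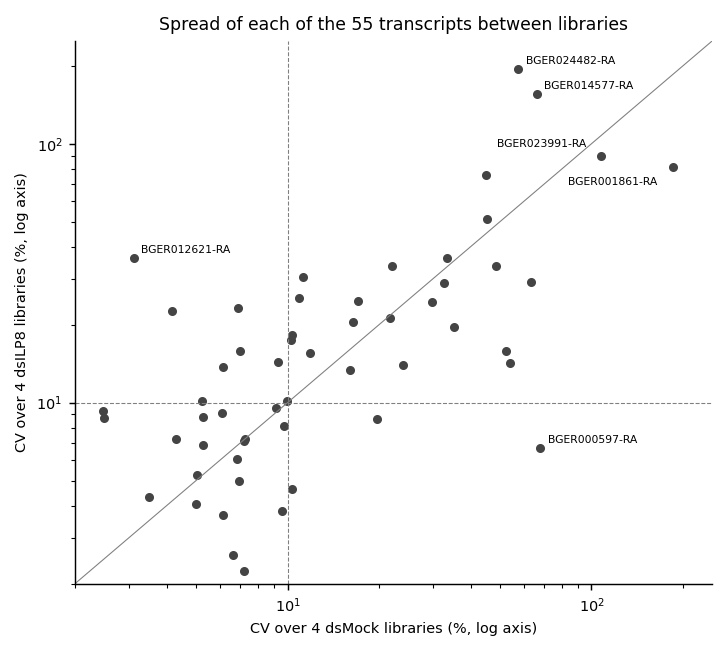
Coefficient of variation over the 4 dsILP8 libraries (y axis, %, log scale) against that over the 4 dsMock libraries (x axis, %, log scale), 1 point for each of the 55 transcripts. The dashed lines mark 10% and the diagonal marks equal spread. The 19 steady transcripts lie in the lower left, BGER012621-RA varied mainly among dsILP8 libraries and BGER000597-RA mainly among dsMock libraries.

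The 19 steady transcripts together held 5.25% ± 0.208 of the counts in dsILP8 and 5.15% ± 0.241 in dsMock libraries (SD, n = 4 each). Their mean dsMock levels ran from 1021 CPM (BGER012192-RA) to 9419 CPM (BGER023691-RA). The narrowest was BGER016697-RA, at 1373, 1471, 1443 and 1524 CPM in dsILP8 replicates 1 to 4 and 1446, 1427, 1387 and 1508 CPM in dsMock replicates 1 to 4. Its highest and lowest libraries thus differed by 1.11 times. The widest of the 19, at 1.35 times, was BGER016078-RA, at 1755, 1980, 2120 and 1764 CPM in dsILP8 replicates 1 to 4 and 1566, 1620, 1617 and 1663 CPM in dsMock replicates 1 to 4. Every dsILP8 library of BGER016078-RA lay above every dsMock library in CPM, by a narrow margin.

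The dsILP8 replicate 1 library was the lowest of its group for 28 of the 55 transcripts and the highest for 10. It was the lowest of all 8 libraries for 19. In 3 transcripts it lay below 0.75 times the lowest of the other 7 libraries. BGER012621-RA held 1834 CPM there, against 4011 to 5005 CPM in the other dsILP8 libraries and 4200 to 4527 CPM in dsMock libraries. BGER017741-RA held 889 CPM there, against 1555 to 2002 CPM in the other dsILP8 and 1291 to 1689 CPM in dsMock libraries. The third was BGER027232-RA, given above. By the same factor dsMock replicate 1 lay above all other libraries in 6 transcripts, the largest number of any library.

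Adjacent identifier numbers are the only possible sign of position in the table, and whether they follow the genome could not be checked. Of the 55 transcripts, 3 formed a single run with steps of at most 2, BGER024482-RA, BGER024484-RA and BGER024485-RA. The others were spread over the table, with a smallest step of 21 and a median step of 354 between neighbours in the list. The run held 1.05% ± 0.726 of the counts in dsILP8 and 2.28% ± 1.04 in dsMock libraries (SD, n = 4 each).

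Within the run, BGER024482-RA and BGER024485-RA were low in the same 3 libraries and BGER024484-RA was not. BGER024482-RA held 8.97, 28.6, 7.31 and 1961 CPM in dsILP8 replicates 1 to 4, and 3443, 1044, 1187 and 1976 CPM in dsMock replicates 1 to 4. Its lowest value still rested on 76 counts. BGER024485-RA, rank 9, held 4450, 5809, 4886 and 17291 CPM in dsILP8 replicates 1 to 4, and 31238, 11956, 16837 and 15415 CPM in dsMock replicates 1 to 4. For both, dsILP8 replicates 1 to 3 lay below all dsMock libraries and dsILP8 replicate 4 lay among them. Because the libraries form separate low and high sets, no pooled correlation is given for this pair. BGER024484-RA, between them in number, held 2198, 942, 2314 and 2139 CPM in dsILP8 replicates 1 to 4, and 3327, 1591, 1044 and 2034 CPM in dsMock replicates 1 to 4. Its low libraries were dsILP8 replicate 2 and dsMock replicate 3.

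The rows around the run were far lower than its transcripts. BGER024483-RA, inside it, had 31.1 CPM in dsILP8 replicate 2 and 29.0 CPM in dsMock replicate 3, and at most 0.497 CPM in the other 6 libraries. The libraries in which BGER024483-RA was present were thus the same pair in which BGER024484-RA was lowest. BGER024486-RA, next to the run, averaged 1.15 CPM in dsILP8 and 3.11 CPM in dsMock libraries. The 4 rows after that one averaged 3.03 to 33.5 CPM in dsILP8 and 2.23 to 31.4 CPM in dsMock libraries, and the highest, BGER024489-RA, was present in every library. The 5 rows before the run averaged at most 13.8 CPM in dsILP8 and 17.3 CPM in dsMock libraries. All 8 values of each of the 3 transcripts of the run were not whole numbers, the trace of reads that mapped to more than 1 place and were split. Their single levels are therefore uncertain. Over the whole list 27 of the 55 transcripts had such values in all 8 libraries and none had fewer than 4.

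**Figure D4:**
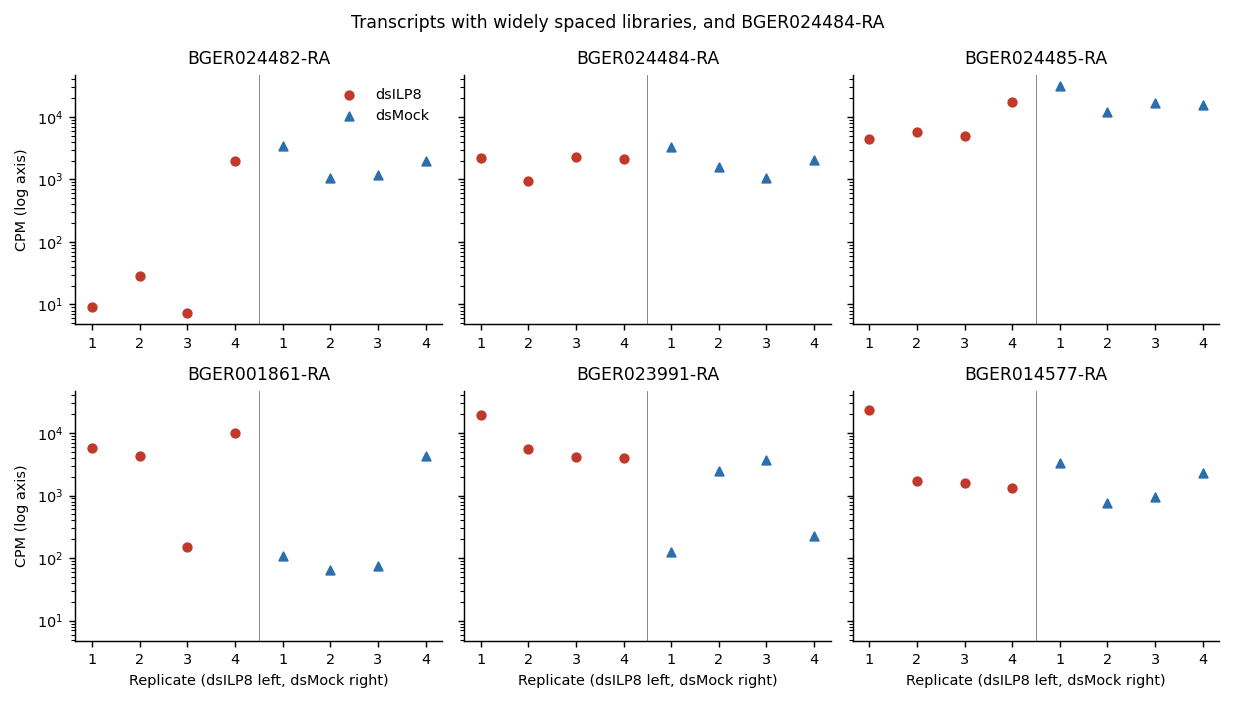
CPM (y axis, log scale) in each library (x axis, replicates 1 to 4 of dsILP8 on the left as circles, of dsMock on the right as triangles) for the 3 transcripts of the run and 3 others with widely spaced libraries. BGER024482-RA and BGER024485-RA were low in dsILP8 replicates 1 to 3, whereas BGER001861-RA, BGER023991-RA and BGER014577-RA had other high and low libraries.

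BGER001861-RA is numbered directly after the 10 serine carboxypeptidase rows that the list leaves out. Its levels were 5784, 4251, 150 and 10160 CPM in dsILP8 replicates 1 to 4, and 108, 63.6, 74.5 and 4289 CPM in dsMock replicates 1 to 4. Thus 3 dsILP8 libraries and 1 dsMock library were high, the others low, and no library lay between 150 and 4251 CPM. Its neighbour BGER001860-RA did not follow it, at 4288, 10003, 12132 and 7477 CPM in dsILP8 replicates 1 to 4 and 9681, 13815, 11091 and 9442 CPM in dsMock replicates 1 to 4. On the other side BGER001862-RA had under 1 CPM in every library. BGER001861-RA is in the list through dsMock replicate 4 alone, and by the median of the dsMock libraries it would not have been chosen.

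BGER023991-RA held 19301, 5476, 4211 and 3955 CPM in dsILP8 replicates 1 to 4, and 123, 2491, 3738 and 223 CPM in dsMock replicates 1 to 4. Every dsILP8 library lay above every dsMock library, but the gap between the groups, 3955 against 3738 CPM, was small beside the spread inside the dsMock group. BGER014577-RA held 23163, 1705, 1582 and 1333 CPM in dsILP8 replicates 1 to 4, and 3361, 773, 948 and 2336 CPM in dsMock replicates 1 to 4. It stood out in dsILP8 replicate 1 alone, the library that stands apart. These last 2 transcripts were the ones of the list that dsILP8 replicate 1 carried above every other library by the factor used above. BGER000597-RA, the fifth of the transcripts with a 10-fold range, was even in dsILP8 libraries, at 1170, 1194, 1024 and 1149 CPM in replicates 1 to 4. In dsMock replicates 1 to 4 it held 1108, 196, 2021 and 1066 CPM. Without dsMock replicate 3, neither BGER023991-RA nor BGER000597-RA would have reached the limit of the list.

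In the comparison of dsILP8 and dsMock libraries no transcript of the list differed at the thresholds of the study, an FDR under 0.05 with a log2 fold change past 1 either way. All 55 were tested in edgeR and limma-voom. In edgeR's quasi-likelihood test 0 were called, where 0.00692% of all 14444 genes tested were (1 gene, lower in dsILP8 libraries). DESeq2 gave no p-value for BGER014577-RA and no adjusted p for 263 genes in all, and it called 0 of the other 54 transcripts and 0.0212% of the 14181 genes with one (3, all lower in dsILP8 libraries), and limma-voom 0 of the 55 and 0.00692% of all genes.

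At an unadjusted p under 0.05, edgeR gave 1 transcript of the list higher in dsILP8 libraries (against 2.37% of all genes tested) and 4 lower (against 1.52%), together 9.09% of the list and 3.9% of all genes. DESeq2 gave 1 higher (against 1.15%) and 4 lower (against 1.1%), together 9.26% of its 54 transcripts and 2.25% of its genes. With limma-voom 3 were higher (against 1.43%) and 5 lower (against 1.73%), together 14.5% of the list and 3.16% of all genes. The list was chosen by dsMock levels that also enter this contrast, and the genes set beside it were of any level. These shares are therefore no test of the list. The smallest FDR of a transcript of the list was 0.9995 in edgeR.

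The log2 fold changes of the list, dsILP8 over dsMock, ran from -2.01 to 2.33 with a median of -0.03, beside a median of 0.01 over all genes tested. They were positive in 20 transcripts (36.4%, against 51.1% of all genes tested and 44.6% of the 653 genes at 100 to 1000 CPM) and negative in 35. With library sizes taken without the 20 most abundant genes, the median of the list was -0.13 and that of all genes -0.09. Of the 55 values, 42 lay within 0.25 of zero (76.4%, against 57.4% of all genes tested and 91.6% of the 653 genes). Beyond 1 either way lay 6 (10.9%, against 10.47% and 0.766%). For the 19 steady transcripts the values ran from -0.12 to 0.21 with standard errors of 0.0899 to 0.110. These transcripts were picked for small CVs in the same libraries, so small standard errors follow from the choice. The list was chosen for high dsMock levels, and a transcript near the limit is more easily in it when its dsMock values happen to be high.

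**Figure D5:**
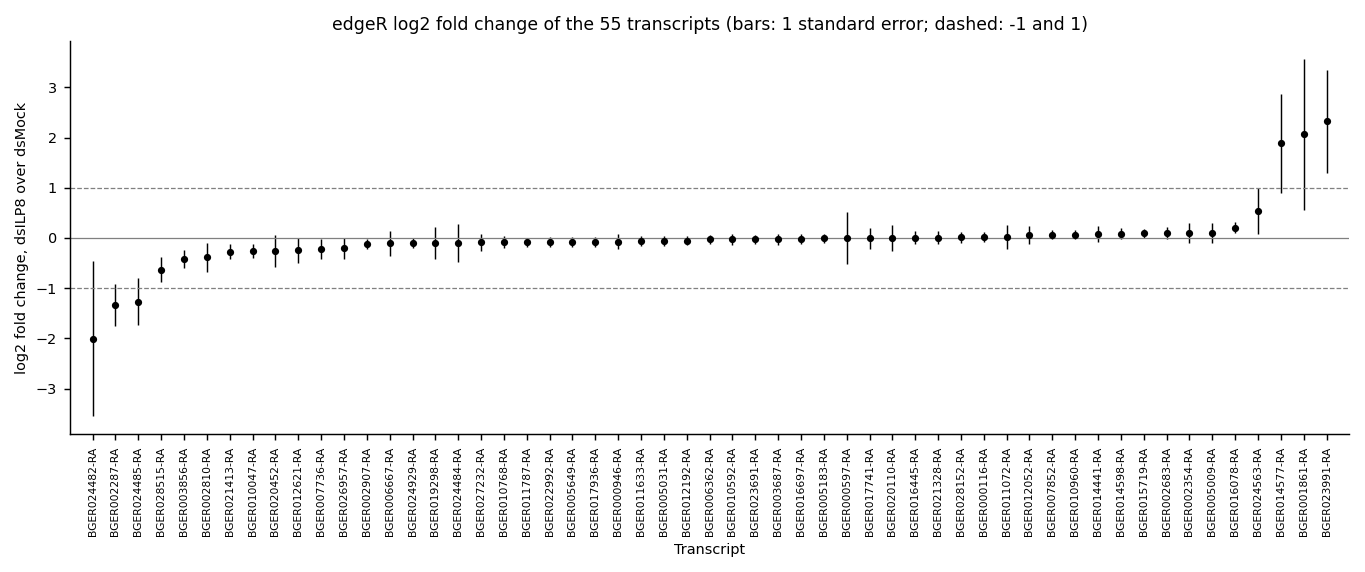
Log2 fold change of dsILP8 over dsMock (y axis, edgeR) for each of the 55 transcripts (x axis, ordered by value), with bars of 1 standard error and dashed lines at -1 and 1. The 6 values beyond the dashed lines carry the longest bars of the plot together with BGER000597-RA and BGER024563-RA, and 42 values lie within 0.25 of zero.

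The largest positive values belonged to transcripts with widely spaced libraries. The log2 fold change of BGER023991-RA was 2.33 (standard error 1.02), and it was 1.44 without dsILP8 replicate 1. BGER001861-RA had 2.06 (standard error 1.51), which was 5.91 without dsMock replicate 4. BGER014577-RA had 1.89 (standard error 0.992), and without dsILP8 replicate 1 the direction turned, to -0.32. BGER024563-RA had 0.53 (standard error 0.464). Its levels were 2596, 837, 3275 and 1652 CPM in dsILP8 replicates 1 to 4 and 1286, 1757, 594 and 2099 CPM in dsMock replicates 1 to 4. Its groups overlapped almost completely, and leaving out dsILP8 replicate 3 gave 0.19.

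Of the 4 lowest values, 2 came from the run. For BGER024482-RA it was -2.01 (standard error 1.55), and -7.05 without dsILP8 replicate 4 (FDR = 0.0694 from edgeR). BGER024485-RA had -1.27 (standard error 0.465), and -1.93 without that library (FDR = 0.511 from edgeR). Both were called by DESeq2 when that library was omitted, an alternative chosen with the values already in view. Leaving out that library means leaving out the 1 dsILP8 library in which they were high.

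BGER002287-RA had the smallest unadjusted p of the list (0.00953 from edgeR's quasi-likelihood test, FDR = 0.9995) with a log2 fold change of -1.34 (standard error 0.413). It held 999, 525, 594 and 748 CPM in dsILP8 replicates 1 to 4, and 860, 1127, 3352 and 1721 CPM in dsMock replicates 1 to 4. The groups overlapped only through dsILP8 replicate 1, which lay above dsMock replicate 1. Without dsMock replicate 3, the highest library, the value was -0.83. BGER028515-RA had -0.63 (standard error 0.245). Its levels were 805, 816, 1079 and 1187 CPM in dsILP8 replicates 1 to 4 and 2146, 1549, 1365 and 879 CPM in dsMock replicates 1 to 4, and the value was -0.41 without dsMock replicate 1. BGER003856-RA, named because its unadjusted p was also under 0.05, had 1142, 981, 1504 and 1497 CPM in dsILP8 replicates 1 to 4 and 1961, 1814, 1669 and 1313 CPM in dsMock replicates 1 to 4. In the last 2 transcripts dsMock replicate 4 was the library that lay within the dsILP8 range.

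In CPM the libraries of the groups did not overlap for 2 of the 55 transcripts, BGER016078-RA and BGER023991-RA, both higher in dsILP8 libraries (3.64%, against 1.42% of all genes tested for that direction and 2.33% for both). None lay below, against 0.907% of all genes tested. With TMM factors, which rescale each library, 0 of the 55 were without overlap, against 1.13% of all genes tested in each direction and 2.26% for both. The split over all genes was then 163 higher and 163 lower in place of 205 higher and 131 lower.

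The transcripts of the list did not vary together as one block. Over the 1485 pairs the median Pearson r of log2(CPM + 1) across the 8 libraries was 0.088, with quartiles of -0.226 and 0.398. After taking out the group means, or leaving out any 1 library, the median moved by less than 0.1. An r over 0.9 was found in 16 pairs and one under -0.9 in 2. By an exact two-sided permutation test over the 40320 pairings of the 8 libraries, 146 pairs had an unadjusted p under 0.05, and none passed after Benjamini-Hochberg adjustment over the 1485 pairs (smallest adjusted p = 0.125). All values of a library share its total, and the row with the most counts took 15.8% to 22.1% of it. Whether this shared scale shaped the correlations was not tested. With TMM factors the median r was 0.115.

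The pairs named here were chosen after their values were seen. BGER017741-RA and BGER021328-RA had the smallest p of all pairs, with r = 0.96 (exact permutation p = 0.000174, adjusted 0.125) and Spearman rho = 0.93 (exact permutation p = 0.00223, adjusted 0.255). Without the 2 libraries farthest from the median of BGER017741-RA, r was 0.94. BGER020110-RA and BGER020452-RA were both highest in dsMock replicate 1, as were 10 transcripts of the list in all. They had r = 0.88 (exact permutation p = 0.000347, adjusted 0.125) and rho = 0.90 (exact permutation p = 0.00456, adjusted 0.282), and r was 0.92 without 2 libraries. BGER019298-RA, also highest there, had r = 0.91 with BGER020452-RA (exact permutation p = 0.00528, adjusted 0.271), but 0.40 without 2 libraries. BGER005009-RA and BGER012052-RA, whose lowest values were both in dsILP8 replicate 1 (1541 and 2822 CPM), had r = 0.95 (exact permutation p = 0.000422, adjusted 0.125) and rho = 0.95 (exact permutation p = 0.00114, adjusted 0.255). For this pair r was 0.91 without 2 libraries and 0.86 without dsILP8 replicate 1.

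At the lower end of the list the limit of 1000 CPM cut through a dense range. Just inside lay BGER005031-RA, at 1013, 1037, 985 and 997 CPM in dsILP8 replicates 1 to 4 and 1001, 1054, 943 and 1116 CPM in dsMock replicates 1 to 4. BGER012192-RA was at 937, 1044, 999 and 1042 CPM in dsILP8 and 1021, 1084, 922 and 1055 CPM in dsMock libraries, in the same order. BGER005649-RA was at 946, 1023, 920 and 980 CPM in dsILP8 and 1006, 1115, 864 and 1029 CPM in dsMock libraries. All 3 had at least 1 dsMock library below the limit. Just outside lay BGER002842-RA, at 716, 1012, 1145 and 1520 CPM in dsILP8 replicates 1 to 4 and 1057, 965, 1032 and 915 CPM in dsMock replicates 1 to 4. BGER001359-RA was at 877, 1003, 948 and 1161 CPM in dsILP8 and 1048, 1037, 881 and 973 CPM in dsMock libraries. BGER015574-RA was at 920, 975, 1037 and 978 CPM in dsILP8 and 956, 967, 969 and 1027 CPM in dsMock libraries. Each of these had at least 1 dsMock library above the limit, so single libraries inside and outside it overlapped. By the mean of the dsILP8 libraries 60 rows would have been listed, of which 49 are among the 55. The 6 transcripts that would drop out include BGER024482-RA, BGER002287-RA and BGER028515-RA.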

How the data were processed

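mRNA libraries of conglobate glands were sequenced for 4 dsILP8 and 4 dsMock samples. The authors used FastQC and Trimmomatic on the reads, HISAT2 to map them to the cockroach genome and featureCounts to count them, splitting reads with several mapping places. The deposited values are expected counts per transcript identifier, scaled neither for depth nor for length. Neither the strand setting nor the annotation release was stated. Columns were mapped through the library names in the labels.

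CPM were computed from unrounded counts over the column sum. For tests, counts were rounded and a gene was kept when at most 4 libraries had none, so 14444 genes remained. Groups were compared in R 4.3.3 by the quasi-likelihood test of edgeR 4.0.16, with TMM scaling and p-values adjusted by Benjamini-Hochberg (FDR). Standard errors came from the fold change divided by the root of its F value. Alternatives were DESeq2 1.42.0, limma 3.58.1 (voom), other scalings, filters and rounding, a replicate block and each library left out. The edgeR, DESeq2 and limma-voom fits were tested on simulated counts. Figures used matplotlib 3.10.9.

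The transcripts of the list, and what to name, were chosen with earlier results of these data known. Values in every library were given for the 10 most abundant, those in runs, the 4 largest and 4 smallest fold changes, the 4 with the largest dsMock CV, 3 rows on each side of 1000 CPM, and BGER024482-RA and BGER024485-RA. Others are named with the reason.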

Additional observations from a re-analysis of the deposited data

Results flagged for a closer look

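Groups of 4 libraries were searched for a single library far from the other 3, by the ratio of its gap to the range of the group, against Dixon's limit for groups of 4. Of 46 groups searched, 9 passed. Chance gives about 1 in 20 among groups taken without regard to their values, but several of these transcripts were chosen for a wide spread or an extreme fold change, so the count cannot be read against that rate.

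In dsILP8 libraries, replicate 4 stood above the others in BGER024482-RA (1961 CPM, the others 7.31 to 28.6), in BGER024485-RA (17291 CPM, the others 4450 to 5809) and in the 55 transcripts' part of all counts (28.0%, the others 23.7% to 24.1%). Replicate 1 stood above the others in BGER014577-RA (23163 CPM, the others 1333 to 1705) and BGER023991-RA (19301 CPM, the others 3955 to 5476), and below them in BGER027232-RA (5410 CPM, the others 8760 to 9292). Replicate 2 stood below the others in BGER024484-RA (942 CPM, the others 2139 to 2314).

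In dsMock libraries, replicate 4 stood above the others in BGER001861-RA (4289 CPM, the others 63.6 to 108). Replicate 1 stood below the others in BGER010768-RA (36680 CPM, the others 41136 to 41865).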

How the results depend on the processing

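No transcript of the list was called in any edgeR alternative, in DESeq2 on all 8 libraries or in limma-voom. Over all genes edgeR called 1 gene, also without each library in turn (1 to 1), DESeq2 called 3, robust dispersion 2 and the replicate number as a block 2, and none of these was in the list. For samples with the same replicate number, correlations of their deviations from the group means were -0.03, -0.06, 0.04 and 0.14. The library numbers 5 and 8 occur in both groups. Number 5 is dsILP8 replicate 3 and dsMock replicate 2 (correlation -0.06), and number 8 is replicate 4 of each group (0.14). Such values cannot tell whether samples were handled together, and a block by library number was not tested. DESeq2 with each library left out, added after the data were seen, gave 3, 4, 3 and 12 calls when dsILP8 replicates 1 to 4 were omitted and 3, 3, 2 and 4 when dsMock replicates 1 to 4 were. Transcripts of the list were among them in 2 fits: 2 without dsILP8 replicate 4 (BGER024482-RA, -7.06, adjusted p = 9.36e-19, and BGER024485-RA, -1.93, adjusted p = 7.35e-08) and 1 without dsMock replicate 4 (BGER001861-RA, 5.91, adjusted p = 0.00023). Over all alternatives the highest adjusted p of these 3 was 0.999977 to 0.999987. Of the 8 transcripts whose fold changes were recomputed under the alternatives, only BGER014577-RA changed sign, to -0.32 in edgeR and -0.33 in DESeq2, both without dsILP8 replicate 1, and in edgeR it ran from -0.32 to 2.31 without each library.

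The median log2 fold change of the list was -0.13 with library sizes without the 20 most abundant genes, and -0.07 to -0.02 without each library. The number of transcripts without overlap was 0 with TMM factors and 2 to 6 without each library (5 and 4 without dsILP8 replicates 1 and 4; 4, 4, 4 and 6 without dsMock replicates 1 to 4), where 4.25% to 5.19% of all genes tested were without overlap, more than the 2.33% with all libraries. As shares of the list these counts were 3.64% to 10.9%. The list would hold 146 rows at 500 CPM, 20 at 2000 CPM and 53 to 55 without each dsMock library. The share of counts was 41.5% in dsILP8 and 44.1% in dsMock libraries without the 14 rows in the denominator, and 24.0% to 25.4% and 23.8% to 26.3% without each library. The median CV ran from 8.25% to 16.2% in dsILP8 and from 8.76% to 11.8% in dsMock libraries without each library. At this depth counting error is small beside the spread between libraries, so the 4 libraries per group set the precision.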
